A study of Mus musculus with 6 samples.

Results

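The mitochondrial ribosomal protein genes were followed in mouse B cells stimulated with anti-CD40 antibody and IL-4 with or without bryostatin 1. They are the genes named Mrpl or Mrps plus a number that have at least 1 mRNA row in the deposited count table, which gave 78 of the 46316 gene symbols in the table, 49 named for the large and 29 for the small subunit. All 78 passed the filter on low counts. Naive B cells from spleens of WT mice were cultured for 2 days with 500 ng/mL anti-CD40 and 5 ng/mL IL-4, and 3 samples received nothing more (IL-4) while 3 received 0.8 nM bryostatin 1 as well (IL-4 + bryostatin 1). Both groups therefore carried the antibody and the cytokine, and neither held unstimulated cells. Bryostatin 1 is a marine macrolide that activates protein kinase C. The study used mice of several strains (129+Ter/SvJcl, BALB/c and C57BL/6J), and which strain or age gave these samples is not stated. Nor do the sources say that each sample was a mouse or culture of its own, so the p-values cover the scatter of these 6 samples, and part of that scatter may be technical.

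Mitochondria hold their own ribosome, which translates a small set of respiratory chain subunits from mitochondrial DNA. Its ribosomal RNAs, 12S in the small and 16S in the large subunit, are transcribed inside the organelle, whereas every one of its proteins is encoded in the nucleus, made in the cytosol and imported. Some of these proteins descend from bacterial ribosomal proteins and others were added in the mitochondrial lineage. B cells enlarge their mitochondria and divide after stimulation, and protein synthesis in the organelle is part of that growth.

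The samples held 19959939 to 24896388 counts in the rows used, of which the 78 members took 79808 to 101998. Single members had 332 to 2793 counts per sample. The 6 B cell markers summed to 120027 to 123896 counts with IL-4 and 102377 to 127713 with bryostatin 1. The 7 T cell markers gave 17 to 29 and 51 to 83 counts, and the 5 NK cell markers 6 to 11 and 14 to 36. The 7 myeloid markers gave 111 to 173 and 443 to 640 counts, of which all but 50 to 90 and 66 to 102 were from Adgre1. The 5 red blood cell markers gave 14 to 30 and 607 to 616 counts, 2 to 8 and 4 to 24 without the globin gene Hbb-bt, and the erythroid enzyme gene Alas2 was at 0 in every sample. The part of these genes in the results was not tested. In such bulk RNA a change in the mix of B cell states and a change in RNA per cell cannot be told apart.

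The comparison asks how bryostatin 1 altered the RNA of these genes in IL-4-stimulated B cells. Most members moved little, and more of them rose than fell. With edgeR's quasi-likelihood test, called at an adjusted p under 0.05 over 13864 genes, 28 members were higher and 9 lower with bryostatin 1, and 41 were not called. Of all genes tested, 30.1% were higher and 28.0% lower, so the members' share that rose, 35.9%, was near that of all genes, and their share that fell, 11.5%, was below it. The log2 fold change had a median of 0.05 over the members and 0.00 over all genes. It ran from -0.31 for Mrps16 to 0.54 for Mrps10.

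The band of changes was narrow. Of the 78 members, 72 stayed within 1.25-fold in either direction, 92.3%, against 59.8% of all genes tested and 70.5% of the 5925 genes whose IL-4 mean lay in the members' range. The other 6 members rose by more than 1.25-fold and none fell below 0.8-fold. Of the 5925 genes in the members' range 32.8% were called higher and 32.4% lower. The samples of the groups did not overlap for 44 members, 56.4%, against 63.5% of all genes and 70% of those 5925. In 33 of the 44 the bryostatin 1 samples were the higher ones and in 11 the lower. These shares stand side by side as a description, with no test of the list.

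**Figure D1:**
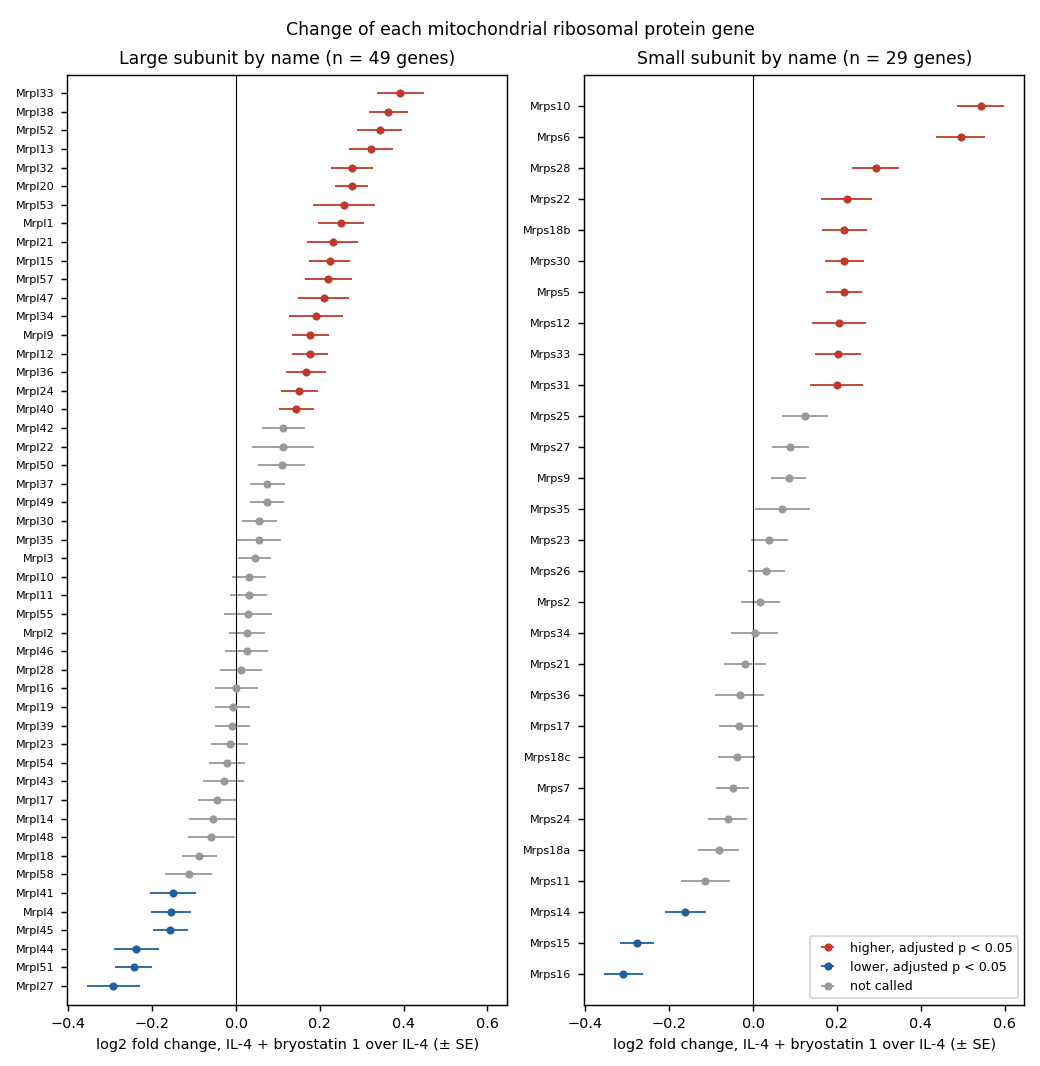
Log2 fold change (± SE) of IL-4 + bryostatin 1 over IL-4 for each of the 49 large and 29 small subunit members (3 samples a group), with colour for the call. The 28 members called higher reach 0.54 and the 9 called lower reach -0.31, and each subunit holds both.

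Among the 29 small subunit members 10 rose, 3 fell and 16 were not called. Mrps10, the homologue of a bacterial protein in the head of the small subunit, had the largest change of all members. It stood at 25.7, 24.5 and 25.3 CPM (counts divided by the scaled depth of the sample) with IL-4 and at 35.3, 38.3 and 36.4 CPM with bryostatin 1. The groups were far apart, with a log2 fold change of 0.54 ± 0.06 (SE, n = 3 a group, edgeR adjusted p = 2.1e-07).

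Mrps6, whose bacterial homologue pairs with S18 on the platform of the small subunit, gave 21.1, 21.4 and 21.8 CPM with IL-4 and 30.3, 29.8 and 30.5 CPM with bryostatin 1. Its spread within each group was under 1 CPM, and it rose by 0.50 ± 0.06 (log2, edgeR adjusted p = 9.3e-07). In the GENCODE M21 annotation 159 exonic bases of Mrps6 are shared, on the same strand, with Slc5a3, an inositol transporter gene whose level went from 13.5 to 19.4 CPM, a log2 fold change of 0.52 ± 0.08. Mrps6 also shares 305 bases on the same strand with a gene that was not among those tested. How many reads Mrps6 shares with these genes was not tested.

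Mrps28, the homologue of bacterial S1, gave 27.6, 28.6 and 29.2 CPM with IL-4 and 36.2, 33.3 and 35.0 CPM with bryostatin 1, a log2 fold change of 0.29 ± 0.06 (edgeR adjusted p = 0.000221). No sample of one group reached the other. The 7 further small subunit members called higher lay between 0.20 and 0.22. They include Mrps22, a mitochondria-specific protein whose loss in humans causes respiratory chain deficiency, at 32.4, 37.7 and 38.3 CPM with IL-4 and 40.6, 44.0 and 42.2 CPM with bryostatin 1. They also include Mrps5 at 0.22, Mrps12, the homologue of the protein at the decoding centre, at 0.21, and Mrps31 and Mrps33 at 0.20. Mrps12 missed the threshold without IL-4 replicate 1 (log2 fold change 0.16, edgeR adjusted p = 0.0514) and Mrps31 missed it with DESeq2 (0.19, adjusted p = 0.0546).

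Of the 3 small subunit members that fell, Mrps16 changed most. This homologue of bacterial S16, a protein needed early in small subunit assembly in bacteria, is also a human respiratory chain disease gene. Mrps16 was at 54.9, 56.9 and 53.0 CPM with IL-4 and at 44.7, 42.7 and 45.5 CPM with bryostatin 1, and it fell by 0.31 ± 0.05 (log2, edgeR adjusted p = 1.7e-05). Mrps15, the homologue of a bacterial protein that binds the central domain of the ribosomal RNA, was at 78.8, 76.4 and 76.1 CPM and then 62.3, 65.4 and 63.3 CPM. It fell by 0.28 ± 0.04 (edgeR adjusted p = 1.1e-05). In both genes every bryostatin 1 sample lay below every IL-4 sample. Mrps14 gave 77.1, 81.0 and 83.5 CPM and then 66.7, 74.6 and 75.0 CPM, a log2 fold change of -0.16 ± 0.05 (edgeR adjusted p = 0.00844), which was -0.11 with an adjusted p of 0.064 without bryostatin 1 replicate 1.

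**Figure D2:**
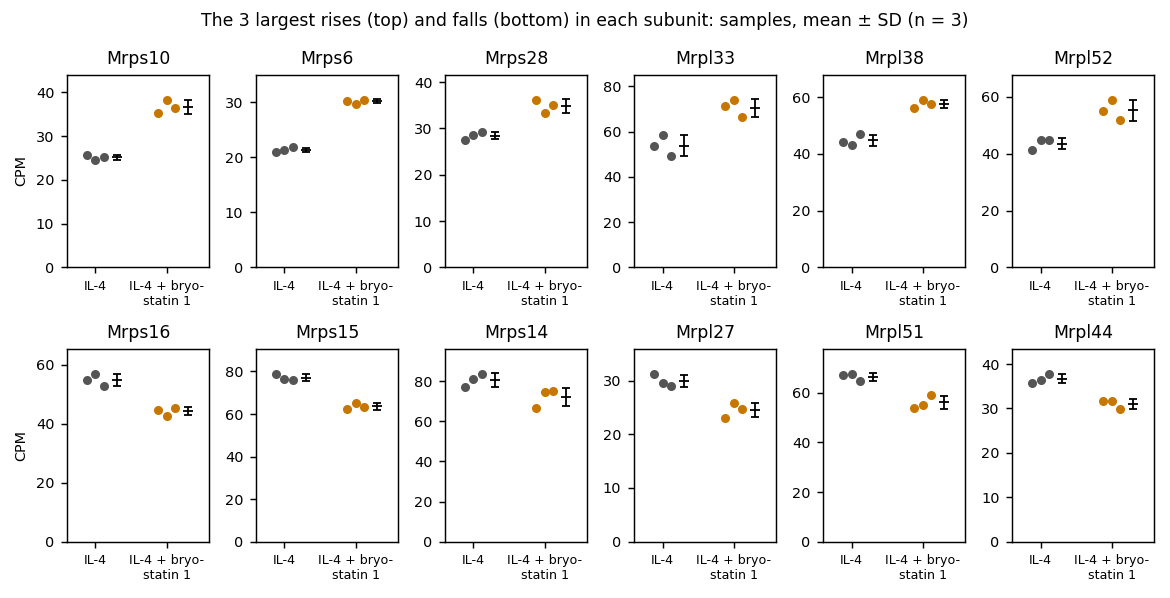
CPM in each sample (points) and mean ± SD (n = 3, black) for the 3 largest rises (top) and the 3 largest falls (bottom) in each subunit, on axes that start at 0. In each of the 12 genes the groups do not overlap, from 25.7 CPM as the highest IL-4 sample against 35.3 CPM as the lowest bryostatin 1 sample in Mrps10 to 77.1 against 75.0 CPM in Mrps14.

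Among the 49 large subunit members 18 rose, 6 fell and 25 were not called. Mrpl33, a small protein with a bacterial homologue, rose most. It was at 53.7, 58.4 and 49.4 CPM with IL-4 and at 71.4, 74.1 and 66.3 CPM with bryostatin 1. These samples scattered by 4.51 and 3.96 CPM (SD, n = 3 each) (the groups did not overlap), and the log2 fold change was 0.39 ± 0.06 (edgeR adjusted p = 1.1e-05). Mrpl33 shares 261 exonic bases on the same strand with a gene that was not among those tested. How many reads they share was not tested.

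Mrpl38, a mitochondria-specific protein of the central protuberance, was at 44.2, 43.0 and 47.0 CPM with IL-4 and at 56.3, 59.1 and 57.5 CPM with bryostatin 1, a rise of 0.36 ± 0.05 (log2, edgeR adjusted p = 2.8e-06). Mrpl52, another protein that bacteria lack, went from 41.2, 44.6 and 44.7 CPM to 54.9, 59.0 and 51.8 CPM, a rise of 0.34 ± 0.05 (edgeR adjusted p = 2.5e-05). Neither gene had overlapping groups.

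Mrpl13 was at 47.9, 51.4 and 53.7 CPM with IL-4 and at 60.2, 67.1 and 64.4 CPM with bryostatin 1, and rose by 0.32 ± 0.05 (log2, edgeR adjusted p = 3.3e-05). Its exons share 330 bases with Mtbp on the opposite strand, a gene that rose by 0.53 ± 0.05, and the sources do not state whether strand was used in counting. Mrpl32, whose precursor is matured by the m-AAA protease of the inner membrane, and Mrpl20, whose bacterial homologue acts early in large subunit assembly, rose by 0.28 ± 0.05 and 0.28 ± 0.04. Mrpl20 was tight within its groups, at 67.4, 68.1 and 67.2 CPM with IL-4 and 79.4, 82.8 and 83.5 CPM with bryostatin 1. The other 12 large subunit members called higher lay between 0.14 for Mrpl40 and 0.26 for Mrpl53. Of these 12, Mrpl34 lost its call under 5 of 14 alternatives, among them the fits without IL-4 replicate 1, IL-4 replicate 2 or bryostatin 1 replicate 1 (edgeR adjusted p = 0.0594, 0.0734 and 0.0873).

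Mrpl27, the homologue of the bacterial protein that reaches towards the peptidyl transferase centre, fell most in the large subunit. It was at 31.2, 29.6 and 29.0 CPM with IL-4 and at 23.1, 25.8 and 24.6 CPM with bryostatin 1, a log2 fold change of -0.29 ± 0.06 (edgeR adjusted p = 0.000591). The lowest IL-4 sample stood above the highest bryostatin 1 sample by more than the range within either group.

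Mrpl51, a mitochondria-specific protein, fell by 0.24 ± 0.04 (log2, edgeR adjusted p = 0.000143), from 67.0, 67.6 and 64.6 CPM to 54.0, 55.2 and 59.0 CPM. Mrpl44, which carries a ribonuclease III-like fold and is a human cardiomyopathy gene, gave 35.7, 36.5 and 37.8 CPM and then 31.7, 31.7 and 29.8 CPM, and fell by 0.24 ± 0.05 (edgeR adjusted p = 0.00101). It shares 126 exonic bases with Wdfy1 on the opposite strand, and Wdfy1 had a log2 fold change of -0.19 ± 0.06. Such overlaps with a tested gene exist for 20 members, and neighbours of called members did not always move the same way. Mrpl24 and Mrpl47, both called higher, share 594 and 616 bases with opposite-strand genes at -0.28 ± 0.08 and -0.15 ± 0.04. Mrpl47 also shares 452 bases with another opposite-strand gene, at 0.08 ± 0.04 and not called. What the overlaps add to the counts was not tested. Mrpl53 shares 695 bases on the same strand with a gene that was not among those tested. Mrpl45 fell by 0.16 ± 0.04 and Mrpl4 by 0.16 ± 0.05. The call of Mrpl4 was lost without bryostatin 1 replicate 3, at an adjusted p of 0.0775 in the same edgeR test. Mrpl41 was called at -0.15 although its groups overlapped (42.8 to 46.5 CPM against 38.1 to 43.2 CPM), and it lost the call under 6 of 14 alternatives. Among these were the fits without IL-4 replicate 1 or 2 and without bryostatin 1 replicate 1 or 3, with edgeR adjusted p from 0.0614 to 0.121.

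The subunits gave similar shares, with no test between them. Of the large subunit members 36.7% were higher and 12.2% lower, and of the small subunit members 34.5% and 10.3%. Their median log2 fold changes were 0.05 and 0.04. Leaving out single libraries moved both medians. Without IL-4 replicate 1 the medians were 0.03 and 0.00, without bryostatin 1 replicate 2 they were 0.035 and 0.0351, and without bryostatin 1 replicate 1 they were 0.06 and 0.06. The name does not always give the place of a protein. With Mrps30 and Mrps18a, both located in the large subunit of the mammalian ribosome, counted there and Mrps36, a subunit of the 2-oxoglutarate dehydrogenase complex, left out, 19 of 51 large subunit members were higher and 6 lower, and 9 of 26 small subunit members were higher and 3 lower.

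The summed level of each subunit was slightly higher on average with bryostatin 1, and more so in the large subunit. No test was run between the subunits. The large subunit members summed to 2540, 2571 and 2605 CPM with IL-4 and to 2647, 2772 and 2695 CPM with bryostatin 1. These groups did not overlap, and the ratio of the means was 1.05. The small subunit members summed to 1342, 1379 and 1395 CPM and then to 1382, 1427 and 1411 CPM, where bryostatin 1 replicate 1 lay below IL-4 replicate 3, with a ratio of 1.02. The large sum divided by the small sum was 1.89, 1.86 and 1.87 with IL-4 and 1.91, 1.94 and 1.91 with bryostatin 1, so that the large subunit's share of the members' counts was 65.1% to 65.4% and then 65.6% to 66.0%. The 28 members called higher added 227 CPM, the 9 called lower took away 72.8 CPM and the 41 others added 12.9 CPM.

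**Figure D3:**
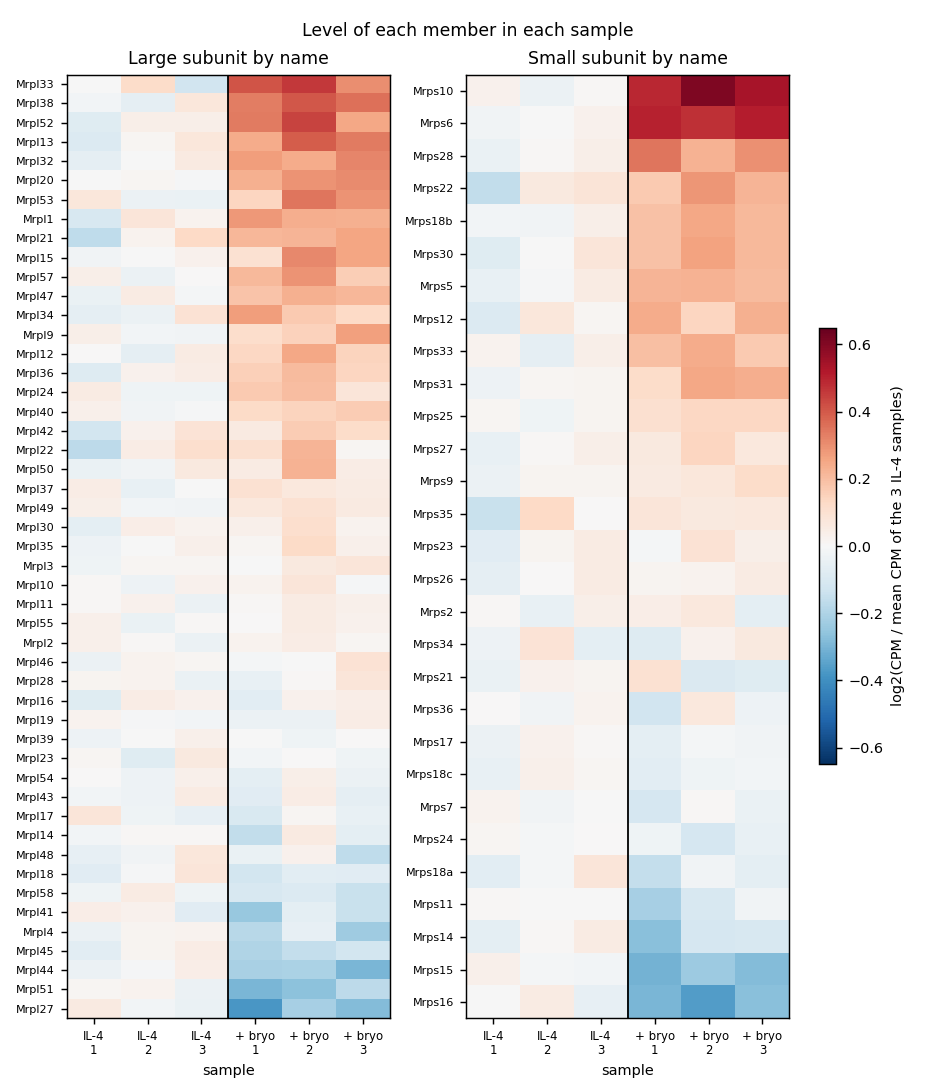
Log2 of each member's CPM over its mean in the 3 IL-4 samples, for every sample (columns) and member (rows, ordered by log2 fold change), left the 49 large and right the 29 small subunit members. The rows at the top are raised in all 3 bryostatin 1 samples and those at the bottom lowered in all 3, while IL-4 replicate 1 lies slightly below the other IL-4 samples in several rows such as Mrpl21 and Mrps22.

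Replicates were close. The coefficient of variation of a member over the 3 samples had a median of 3.17% with IL-4 and 3.65% with bryostatin 1. The widest were Mrpl21 with IL-4, at 10.2%, and Mrps21 with bryostatin 1, at 7.58%. Mrpl21 was at 35.9, 40.8 and 44.0 CPM with IL-4 and at 46.8, 46.8 and 48.1 CPM with bryostatin 1, so its rise of 0.23 ± 0.06 (log2, edgeR adjusted p = 0.00341) came with its highest IL-4 sample close below the bryostatin 1 samples. Its mRNA rows also disagreed most of all members, the lowest of them at 0.532 of the highest.

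Members of named sites of the ribosome included both called and uncalled genes. The stalk recruits translation factors to the large subunit. Of its 4 genes Mrpl12 and Mrpl53 rose, by 0.18 ± 0.04 and 0.26 ± 0.07, and Mrpl10 and Mrpl11 were at 0.03 and 0.03 with neither called. Mrpl12, which in humans also binds the mitochondrial RNA polymerase, was at 101, 96.3 and 104 CPM with IL-4 and at 110, 119 and 111 CPM with bryostatin 1. Mrpl53 was at 17.0, 15.7 and 15.7 CPM and then 17.7, 20.5 and 19.7 CPM, and its groups came close without overlapping.

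At the rim of the exit tunnel, where the nascent chain leaves towards the inner membrane, Mrpl24 rose by 0.15 ± 0.04 and Mrpl47 by 0.21 ± 0.06. Mrpl45, which anchors the ribosome to the inner membrane, fell from 78.9, 83.7 and 85.5 CPM to 72.4, 74.2 and 76.3 CPM. The others had log2 fold changes of 0.11 (Mrpl22), -0.02 (Mrpl23) and -0.05 (Mrpl17) and were not called. Among the 7 genes of the central protuberance Mrpl38 and Mrpl40 rose, Mrpl27 fell, and Mrpl18, Mrpl46, Mrpl48 and Mrpl58 lay between -0.11 and 0.03 with no call. Mrpl58 is a peptidyl-tRNA hydrolase built into the ribosome. Mrpl18 was called at -0.13 without IL-4 replicate 1 (edgeR adjusted p = 0.0129).

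Mrps18a, Mrps18b and Mrps18c are paralogues of bacterial S18 that sit in different places of the ribosome. Mrps18b was at 29.6, 29.5 and 30.8 CPM with IL-4 and at 34.2, 35.7 and 34.7 CPM with bryostatin 1, a rise of 0.22 ± 0.05 (log2, edgeR adjusted p = 0.00193). Mrps18c, the paralogue at the bacterial S18 position next to Mrps6, was at 49.2, 52.0 and 51.3 CPM and then 48.5, 49.9 and 50.2 CPM, and was not called (-0.04 ± 0.04). Mrps18a was not called either (-0.08 ± 0.05). Mrps30 rose from 53.7, 56.6 and 59.9 CPM to 64.7, 67.9 and 65.5 CPM, by 0.22 ± 0.05, and Mrps36 was not called (-0.03 ± 0.06).

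Evolutionary origin gave a partition that cuts across the subunits. Of 46 members with a bacterial homologue 18 rose (39.1%) and 5 fell (10.9%), with a median log2 fold change of 0.04. Of 31 mitochondria-specific members 10 rose (32.3%) and 4 fell (12.9%), with a median of 0.07. For all genes tested the shares were 30.1% and 28.0%. The large subunit's 21 mitochondria-specific proteins included 6 that rose (28.6%) and 4 that fell (19%). The 10 of the small subunit had log2 fold changes of 0.00 to 0.22, 4 of them called higher (40%) and none lower. Although paralogues of bacterial S18, Mrps18a and Mrps18b were counted as mitochondria-specific, in the large and the small subunit, and Mrps18b is among those called higher. The 3 largest rises and all 3 falls of the small subunit were in proteins with a bacterial homologue.

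Levels between genes were compared per kilobase of transcript. With IL-4 the median member stood at 36.7 CPM per kilobase in the large and 29.0 in the small subunit. The highest in the large subunit was Mrpl33, at 113 CPM per kilobase with IL-4 and 148 with bryostatin 1. The highest in the small subunit was Mrps21, at 136 and 134 CPM per kilobase, with samples at 64.2, 67.5 and 67.0 CPM and then 70.9, 62.1 and 62.6 CPM that overlapped. The lowest were Mrps25, at 4.42 CPM per kilobase, and Mrpl47, at 6.74.

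Promoter sequences are shown because these genes are known to share elements for ETS factors such as GABP, for NRF1 and for YY1, so that the letters can be set beside the changes. RefSeq promoter windows of GRCm38.p6, 250 bases before to 50 after the start, were matched to 69 of the 78 members. The motifs searched, on both strands, were CCGGAAG (ETS), GCGCATGCG (NRF1), AAGATGGC (YY1) and CACGTG (E-box). The NRF1 letters can match both strands at positions 1 base apart, and motifs were allowed to overlap. The 250 bases before the start follow for 6 members, 5′ to 3′ on the gene's strand with matches in capitals. Mrpl52 (chr14:54426659-54426908, + strand) and Mrpl53 (chr6:83108858-83109107, + strand) rose and carry ETS matches, Mrpl27 (chr11:94653541-94653790, + strand) and Mrpl51 (chr6:125191950-125192199, + strand) fell and carry them too, Mrpl32 (chr13:14613038-14613287, - strand) rose and carries NRF1 matches and a YY1 match, and Mrps10 (chr17:47368947-47369196, + strand), the largest rise, carries none of the 4.
Mrpl52: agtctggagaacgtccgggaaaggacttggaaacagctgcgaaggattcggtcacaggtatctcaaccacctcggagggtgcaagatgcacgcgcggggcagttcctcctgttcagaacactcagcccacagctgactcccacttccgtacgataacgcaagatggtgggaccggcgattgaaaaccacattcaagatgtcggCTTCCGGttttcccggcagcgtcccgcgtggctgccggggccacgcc
Mrpl53: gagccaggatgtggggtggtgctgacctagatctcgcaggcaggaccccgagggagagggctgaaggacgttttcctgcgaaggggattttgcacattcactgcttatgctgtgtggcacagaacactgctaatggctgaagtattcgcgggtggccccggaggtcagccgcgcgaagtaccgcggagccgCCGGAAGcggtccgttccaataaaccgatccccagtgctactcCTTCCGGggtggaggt
Mrpl27: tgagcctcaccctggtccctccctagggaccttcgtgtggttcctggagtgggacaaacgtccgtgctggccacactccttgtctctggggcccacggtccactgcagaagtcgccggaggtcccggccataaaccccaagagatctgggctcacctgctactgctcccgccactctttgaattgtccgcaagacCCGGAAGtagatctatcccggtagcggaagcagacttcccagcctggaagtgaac
Mrpl51: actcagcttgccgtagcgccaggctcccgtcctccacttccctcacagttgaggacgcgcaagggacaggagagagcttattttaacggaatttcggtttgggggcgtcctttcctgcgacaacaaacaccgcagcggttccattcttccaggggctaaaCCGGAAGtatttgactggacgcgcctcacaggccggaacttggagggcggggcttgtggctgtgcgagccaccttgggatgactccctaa
Mrpl32: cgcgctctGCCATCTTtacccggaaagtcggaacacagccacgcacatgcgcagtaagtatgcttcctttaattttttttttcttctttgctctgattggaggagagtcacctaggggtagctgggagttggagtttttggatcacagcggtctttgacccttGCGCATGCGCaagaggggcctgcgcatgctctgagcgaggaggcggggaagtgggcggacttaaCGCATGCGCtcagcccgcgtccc
Mrps10: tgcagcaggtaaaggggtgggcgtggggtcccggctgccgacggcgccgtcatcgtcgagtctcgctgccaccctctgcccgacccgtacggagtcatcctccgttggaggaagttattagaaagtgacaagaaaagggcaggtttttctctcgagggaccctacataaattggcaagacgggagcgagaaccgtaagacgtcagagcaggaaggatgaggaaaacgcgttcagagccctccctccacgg

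The ETS letters were in the windows of 26 of the 69 members, 37.7%, against 9.93% of 27025 genes and 21.0% of 9878 tested genes with a window. The NRF1 letters were in 7 members (10.1%, against 1.95% and 4.25%), the YY1 letters in 12 (17.4%, against 3.19% and 5.54%) and the E-box in 5 (7.25%, against 8.09% and 11.9%). The ETS match was found with either direction of change, in 10 of 24 matched members called higher, in 3 of 8 called lower and in 13 of 37 not called. The median log2 fold change was 0.04 with and 0.05 without it. The YY1 letters were in 3 of the 24, 0 of the 8 and 9 of the 37, and the NRF1 letters in 3, 0 and 4. In 29 members none of the 4 was found, which says only that these letters are not in this window.

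The factors that read such elements moved by different amounts. Gabpa, which encodes the DNA-binding subunit of GABP, was at 104, 114 and 109 CPM with IL-4 and at 121, 126 and 123 CPM with bryostatin 1, a rise of 0.18 ± 0.04 (log2, edgeR adjusted p = 0.00092). Of the genes of its partner subunits, Gabpb2 fell from 187, 189 and 176 CPM to 157, 148 and 154 CPM, by 0.27 ± 0.04 (edgeR adjusted p = 1.0e-05), and Gabpb1 was called higher at 0.14 ± 0.04, a call lost without IL-4 replicate 3 or bryostatin 1 replicate 2 (edgeR adjusted p = 0.0848 and 0.0539). Yy1 rose by 0.17 ± 0.03 (edgeR adjusted p = 0.00024), and Nrf1 was not called (0.06 ± 0.05). Among their coactivators Ppargc1b fell from 7.05, 5.73 and 8.36 CPM to 3.40, 3.35 and 2.87 CPM, by 1.14 ± 0.15, Ppargc1a rose by 0.89 ± 0.22 at a level of 0.78 to 1.70 CPM, and Pprc1 was not called (-0.03 ± 0.04). Myc, which drives growth programmes that include mitochondrial ones, rose by 0.36 ± 0.05. Of the 13 regulators listed 5 were higher (38.5%) and 4 lower (30.8%), against 30.1% and 28.0% of all genes tested.

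Of 5 further proteins of the mitochondrial ribosome that carry other names, Ptcd3 and Gadd45gip1 rose, by 0.29 ± 0.04 and 0.20 ± 0.05. Ptcd3, a pentatricopeptide repeat protein of the small subunit, was at 68.1, 69.2 and 71.2 CPM with IL-4 and at 81.0, 85.3 and 88.6 CPM with bryostatin 1. Aurkaip1 (0.12) was called higher, Dap3 (-0.12), a GTP-binding protein of the small subunit, was called lower, and Chchd1 (0.13) was not called. The calls of Aurkaip1 and Dap3 were lost when any of 3 of the 6 samples was left out, IL-4 replicate 3 and bryostatin 1 replicate 2 for both, IL-4 replicate 2 for Aurkaip1 and bryostatin 1 replicate 1 for Dap3. Chchd1 was called higher without IL-4 replicate 3 and without bryostatin 1 replicate 1.

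In these libraries the counts of the organelle's ribosomal RNAs went the other way from the members' medians. mt-Rnr2, the 16S RNA of the large subunit, was at 1810, 1740 and 1510 CPM with IL-4 and at 1280, 922 and 1190 CPM with bryostatin 1, and fell by 0.57 ± 0.09 (log2, edgeR adjusted p = 1.7e-05). mt-Rnr1, the 12S RNA of the small subunit, fell from 609, 596 and 544 CPM to 517, 400 and 502 CPM, by 0.30 ± 0.07 (edgeR adjusted p = 0.00108). Bryostatin 1 replicate 2 was lowest for both RNAs, and it had the highest sum of large subunit members. How far RNA selection or ribosomal RNA removal in library preparation set these levels was not tested. The messages made inside the organelle are not analysed here.

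Of 26 assembly factors 11 were higher (42.3%) and 6 lower (23.1%), against 30.1% and 28.0% of all genes tested. Mrm2, a methyltransferase of the 16S RNA, fell by 0.46 ± 0.11 and Mpv17l2 by 0.45 ± 0.05, whereas Mettl15, a methyltransferase of the 12S RNA, rose by 0.45 ± 0.12. Of 14 translation factors 5 were higher (35.7%) and 3 lower (21.4%). These included the elongation factor genes Tsfm, at 30.0, 30.7 and 29.8 CPM and then 37.8, 34.9 and 36.4 CPM (0.27 ± 0.05), and Gfm1 (0.21 ± 0.04). The release factor gene Mtrf1 rose by 0.40 ± 0.13 and lost its call without IL-4 replicate 1 or bryostatin 1 replicate 3.

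Of 20 genes listed for the charging of tRNAs in the organelle 4 were higher (20%) and 7 lower (35%). For all genes tested the shares were 30.1% and 28.0%. The tRNA charging list holds aminoacyl-tRNA synthetases and subunits of an amidotransferase, and both kinds are among its lower genes. Lars2 changed most, from 2260, 2180 and 1910 CPM to 1460, 1440 and 1520 CPM (-0.52 ± 0.05). Its level with IL-4 was far above the next highest mean of the list, 97.8 CPM. What that level of Lars2 reflects was not tested. Tars2 rose by 0.39 ± 0.04 and Vars2 fell by 0.29 ± 0.07. A list for mitochondrial transcription and RNA handling also holds genes of mitochondrial DNA replication. Of its 25 genes 7 were higher (28%) and 4 lower (16%). Grsf1, a protein of the RNA granules where the ribosome is assembled, was at 0.41 ± 0.04 and the RNA processing enzyme gene Elac2 at 0.28 ± 0.04. Polg2, the accessory gene of the mitochondrial DNA polymerase, was at -0.49 ± 0.10. Tfam, which packages mitochondrial DNA, was called higher at 0.11 ± 0.04, a call that was lost without IL-4 replicate 1 or 2 and without any one of the bryostatin 1 samples.

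Other protein sets of like size had more falls than rises. Of 76 cytosolic ribosomal proteins tested 9 were higher (11.8%) and 18 lower (23.7%), with a median log2 fold change of -0.03. Both shares lay below those of all genes tested, 30.1% and 28.0%, and 49 of the 76 were not called. Of 78 nuclear-encoded respiratory chain subunits tested 17 were higher (21.8%) and 29 lower (37.2%), with a median of -0.04. The 78 mitochondrial ribosomal proteins had 28 higher and 9 lower (median 0.05). These differences between lists were not tested.

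**Figure D4:**
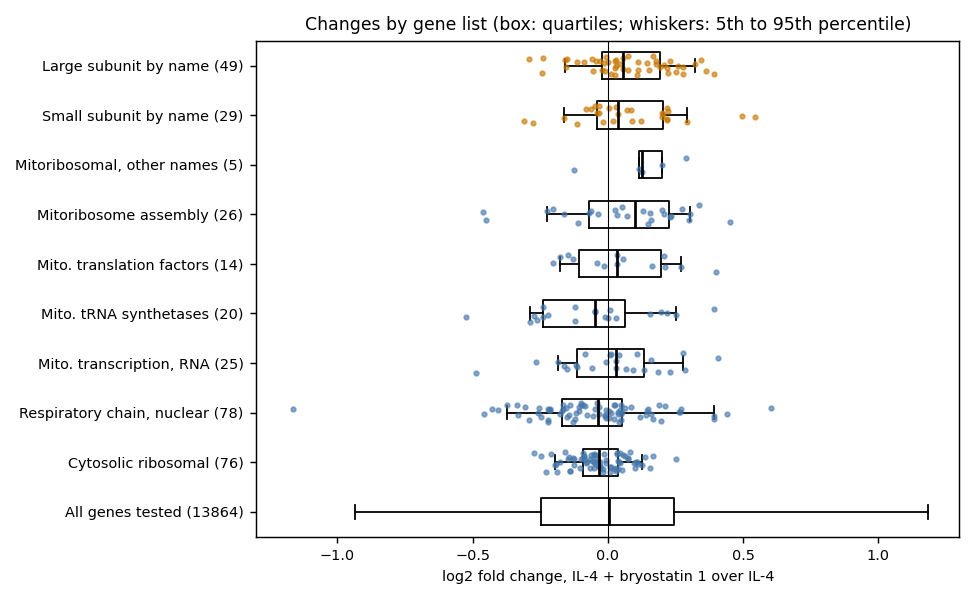
Log2 fold change of each gene (points), with quartiles as boxes and the 5th to 95th percentile as whiskers, for the members by subunit (orange), 7 other lists (blue) and all 13864 genes tested (no points); the number of genes is in parentheses. The members and the cytosolic ribosomal proteins cluster near 0 on either side, all genes spread far wider, and 1 respiratory chain gene lies beyond the axis limit of 1.3.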

How the data were processed

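RNA was measured in 6 samples of mouse B cells, 3 per group, grouped by the submitters' labels. The authors trimmed reads, mapped them with HISAT2 and counted them with featureCounts (SAMtools and cutadapt are also named, with no versions), and deposited raw counts, whole numbers per RefSeq transcript row. The table also holds the authors' log2 fold changes, p-values and q-values, which were not used. The design had assumed counts per gene. Each gene was represented by its most abundant row on average (mRNA rows only for members), because a sum could include a read more than once.

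Genes were kept by filterByExpr (minimum count 10, total 15), which left 13864. DEGES scaling was written anew (TMM, exact test, removal of at least 5% of genes, at an FDR of 0.1, then TMM again, 3 rounds). edgeR 4.0.16 (R 4.3.3, 4 residual degrees of freedom) gave the quasi-likelihood test, whose p-values were adjusted by Benjamini-Hochberg over all genes and called at 0.05. The SE is the log2 fold change divided by the square root of F. The common biological coefficient of variation was 3.88%. The test was checked on simulated counts. DESeq2 1.42.0 was an alternative. CPM use the DEGES-scaled library sizes. Lengths are of the longest GENCODE M21 transcript linked to the gene, and overlaps are between exons of that annotation. Names in the text follow a rule: per subunit up to 6 largest rises and 6 largest falls without overlap, the members of the listed sites, the member highest per length, the 5 proteins with other names, up to 3 called genes per other list and 5 regulators. Mrpl34, Mrpl41, Mrps5, Mrps12, Mrps25, Mrps31, Mrps33, Mrpl21, Gabpb1, Gabpb2, Yy1, the mitochondrial ribosomal RNAs, Adgre1, Hbb-bt and the genes that overlap members were added after their values were seen. The members and lists were chosen with earlier results of these data known. No libraries were copies of each other (chi-square per gene 2.29 to 4.80 between replicates).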

Additional observations from a re-analysis of the deposited data

How the results depend on the processing

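Over all alternatives run on them the members called higher numbered 25 to 34 and those called lower 7 to 10, and 25 of the 28 rises and 6 of the 9 falls were kept under all 14 alternatives at the same threshold. With total counts in place of DEGES the median log2 fold change was 0.0806 in the large and 0.0643 in the small subunit. The median of all genes tested moved up as well, from 0.0026 with DEGES to 0.0284. Genes called higher went from 4177 to 4533 and those called lower from 3881 to 3548. DESeq2 called 26 members higher and 9 lower, and 3546 and 3459 of all genes. With each sample left out in turn, the counts ran from 26 to 29 higher and 7 to 9 lower, in the large subunit 17 to 19 and 4 to 6, in the small 9 to 10 and 2 to 3. The medians ran from 0.0341 to 0.0684 in the large and from 0.001 to 0.0618 in the small subunit. Among 80 genes named, 18 of them outside the rule for names, 44 calls were lost in 11 genes, 9 were gained in 4, and 0 reversed. Whether the replicate numbers pair the samples was not settled, as all correlations between the groups were low. Replicate 1 of IL-4 and of bryostatin 1 had a correlation of 0.142, replicate 2 of each 0.0526 and replicate 3 of each 0.0439. Unlike numbers gave -0.0912 to 0.0457. The highest of these was between IL-4 replicate 3 and bryostatin 1 replicate 2, and every sample but IL-4 replicate 3 was closest to its own number. With the replicate number as a block 29 members were higher and 9 lower, and 4274 and 4019 of all genes. In the main comparison the called members had log2 fold changes of at least 0.14 in size.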
